A study of Homo sapiens with 12 samples.

Results

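The genes described here are 32 neighbours on the long arm of chromosome 6, in the interval 6q15-q21, picked from 11963 measured genes because many of them lay lower in the Hodgkin line L1236 and higher in the Hodgkin line L428. A gene counted as measured when a probe set, a group of short probes on the Affymetrix human expression array, carried its symbol and no other, and the probe set with the highest mean over the 12 arrays stood for it. All 32 members had such a probe set. The choice of members used the values of L1236 and L428 set against the other Hodgkin lines, so those differences are given below as a description without a test. The study compared 3 Hodgkin lymphoma lines, L1236, L428 and KM-H2, with 3 B-cell lymphoma lines, Namalwa, SU-DHL4 and SU-DHL6. Every line was untreated and was measured on 2 arrays, replicates 1 and 2. Namalwa derives from a Burkitt lymphoma, and SU-DHL4 and SU-DHL6 from diffuse large B-cell lymphomas of germinal-centre type. Each line is a model of 1 tumour, so 3 lines stand for each lymphoma type. The Hodgkin lines and Namalwa came from an earlier published dataset, and both SU-DHL lines were measured anew, so Namalwa is the only B-cell line measured beside the Hodgkin lines.

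Classical Hodgkin lymphoma arises from germinal-centre B cells that have lost much of their B-cell programme. Losses of the long arm of chromosome 6 recur in lymphoid tumours, and genes such as PRDM1, the regulator of plasma cell differentiation, and TNFAIP3, an inhibitor of NF-kB signalling, have been studied as their targets. Neighbouring genes need not share a function. The members include housekeeping genes of mitochondria, transcription, autophagy and vesicle traffic beside tissue-restricted genes of the nervous system and muscle. Values are log2 signals after RMA (robust multi-array average), a normalisation that brings the arrays to a common distribution, so a difference of 1 is a 2-fold difference in signal. Levels are compared between lines for 1 gene, not between genes. RNA of whole cultures was measured, so fewer cells with a transcript and less of it per cell cannot be told apart.

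Promoter windows of 300 bases, 250 before and 50 after the annotated start, were taken from RefSeq (build GRCh38.p14) for 29 of the 32 members, with 46 windows in all. COQ3, ASCC3 and PREP had no entry. The first 3 windows shown belong to members for which L428 was the highest Hodgkin line, and the last to PRDM13, for which it was the lowest. They lie at chr6:96897842-96898141 on the minus strand for NDUFAF4, chr6:99568611-99568910 on the minus strand for CCNC, chr6:106325388-106325687 on the minus strand for ATG5 and chr6:99606583-99606882 on the plus strand for PRDM13. Sequences run 5′ to 3′ on the gene's strand, and capitals mark matches on either strand to the 6 strings searched.
NDUFAF4: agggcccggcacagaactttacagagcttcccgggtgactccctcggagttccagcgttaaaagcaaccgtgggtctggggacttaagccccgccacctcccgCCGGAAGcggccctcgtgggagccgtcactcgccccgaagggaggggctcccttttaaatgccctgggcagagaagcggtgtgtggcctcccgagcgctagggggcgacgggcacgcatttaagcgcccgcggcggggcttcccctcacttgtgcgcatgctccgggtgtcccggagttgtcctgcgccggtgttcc
CCNC: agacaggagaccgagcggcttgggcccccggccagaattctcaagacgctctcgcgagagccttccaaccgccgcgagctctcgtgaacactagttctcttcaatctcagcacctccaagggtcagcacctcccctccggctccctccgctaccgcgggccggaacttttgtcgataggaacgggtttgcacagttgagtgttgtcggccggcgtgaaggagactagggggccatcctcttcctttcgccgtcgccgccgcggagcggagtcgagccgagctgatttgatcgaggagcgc
ATG5: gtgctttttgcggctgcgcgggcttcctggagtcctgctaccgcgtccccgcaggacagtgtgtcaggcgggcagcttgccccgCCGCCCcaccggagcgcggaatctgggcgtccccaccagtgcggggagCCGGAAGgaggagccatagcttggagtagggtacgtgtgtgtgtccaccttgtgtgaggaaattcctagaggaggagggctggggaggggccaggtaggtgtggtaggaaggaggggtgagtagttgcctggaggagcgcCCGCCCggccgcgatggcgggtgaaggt
PRDM13: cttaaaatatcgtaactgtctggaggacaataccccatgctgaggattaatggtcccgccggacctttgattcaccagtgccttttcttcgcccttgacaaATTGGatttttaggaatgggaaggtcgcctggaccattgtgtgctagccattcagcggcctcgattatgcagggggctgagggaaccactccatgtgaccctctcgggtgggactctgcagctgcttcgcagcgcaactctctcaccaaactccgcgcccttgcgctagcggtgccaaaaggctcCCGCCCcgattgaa

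The strings were CCGGAAG for ETS factors, GGGCGG for the GC box, CCAAT for the CCAAT box, TATAAA for the TATA box, AAGATGGCG for YY1 and, as the sixth, the palindrome bound by NRF1, and none of them lies within another. The ETS string stood in 17.4% of the 46 member windows and in 10.3% of the 35097 windows of all genes. The GC box stood in 63.0% of member windows and 44.9% of all windows. The shares for the CCAAT box were 39.1% and 34.6%, for the TATA box 10.9% and 11.5%, and for YY1 2.17% and 1.75%. The NRF1 string was in 0 member windows and in 1.24% of all windows. Member windows held a median of 24.5 CG dinucleotides, against 14.0 over all windows. The CCNC window shown had no match, and the NDUFAF4 and ATG5 windows shown each had an ETS match. CCNC and ATG5 each have another window that is not shown. It holds a CCAAT match for CCNC, and CCAAT and TATA matches but no ETS match for ATG5. A match describes these letters alone.

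The 12 arrays had median log2 signals of 6.85 to 6.92. Duplicate arrays correlated across probe sets with r = 0.981 in SU-DHL6 and 0.992 to 0.995 in the other lines, and 465 probe sets lay over 2-fold apart between the duplicates of SU-DHL6, against 17 to 122 in the others. Among the members the widest gap between duplicates was 1.47, for SESN1 in SU-DHL6. The 5 measured B-cell markers had line means of 5.83 to 9.66 in the Hodgkin lines and 9.15 to 12.7 in the B-cell lines, and the value of 9.66 was PAX5 in L1236. Hodgkin cell markers reached 7.25 to 11.9 in the Hodgkin lines and 5.33 to 7.17 in the B-cell lines. Markers of T and NK cells (4.63 to 7.89 in Hodgkin lines, 4.51 to 7.67 in B-cell lines) and of myeloid cells (4.06 to 7.39 and 4.07 to 7.14) overlapped between both. The stromal marker DCN stood at 10.9 in SU-DHL4 and at 7.92 to 8.09 in the other lines, and its part in the results was not tested.

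Of the 32 members, 21 had a line mean at or above 6.9, the median of all values, in at least 1 line. The other 11 were dim everywhere, with line means of 4.09 to 6.72: EPHA7, MANEA, FUT9, FHL5, GPR63, POU3F2, FBXL4, PRDM13, SIM1, POPDC3 and NR2E1. The lower quartiles of the arrays were 5.64 to 5.75. The files hold no detection calls, so signal at or under that level may be background, and a fold that reaches down to it may be too small.

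L1236 lay below and L428 above the mean of the other Hodgkin lines in 21 of the 32 members, or 65.6%, against 32.2% of all genes. This is the order the members were picked for, and nothing is read from it. It held for 17 of the 21 brighter members and for 4 dim ones. The remaining 11 members did not follow it. L1236 lay above and L428 below in 9, of which 7 were dim, and the other two were GRIK2 and FOXO3. SESN1 was below the other lines in both L1236 and L428, and CD164 was above them in both. In L1236 the median difference of the members was -0.49 and that of all genes -0.02. In L428 it was 0.66 against -0.01, and in KM-H2 -0.05 against 0.01. The 3 contrasts share arrays, since each line is part of the mean the other lines are set against.

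With limma's adjusted p under 0.05 and a difference of at least 1 in size, the rule for a call, 10 members were higher in L428 (background 3.33% of all genes) and 1 was lower (3.03%). With values raised to a floor of 5.72, 8 were higher in L428 (3.08%), and MANEA and GPR63 were no longer called. The same 8 were called when dim probe sets were left out (4.69% of the genes left). In L1236, 5 were lower (3.39%) and 0 higher (3.7%). In KM-H2, 4 were higher (3.88%) and 2 lower (3.84%). The choice of members used these contrasts, so the counts only describe them. In L428 the member just inside the difference of 1 was ASCC3 at 1.04 and the member just outside was CD164 at 0.99. The other probe sets of CD164 gave 1.27 and 1.10 there. In L1236 NDUFAF4 was just inside at -1.04 and MANEA just outside at -0.88.

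**Figure D1:**
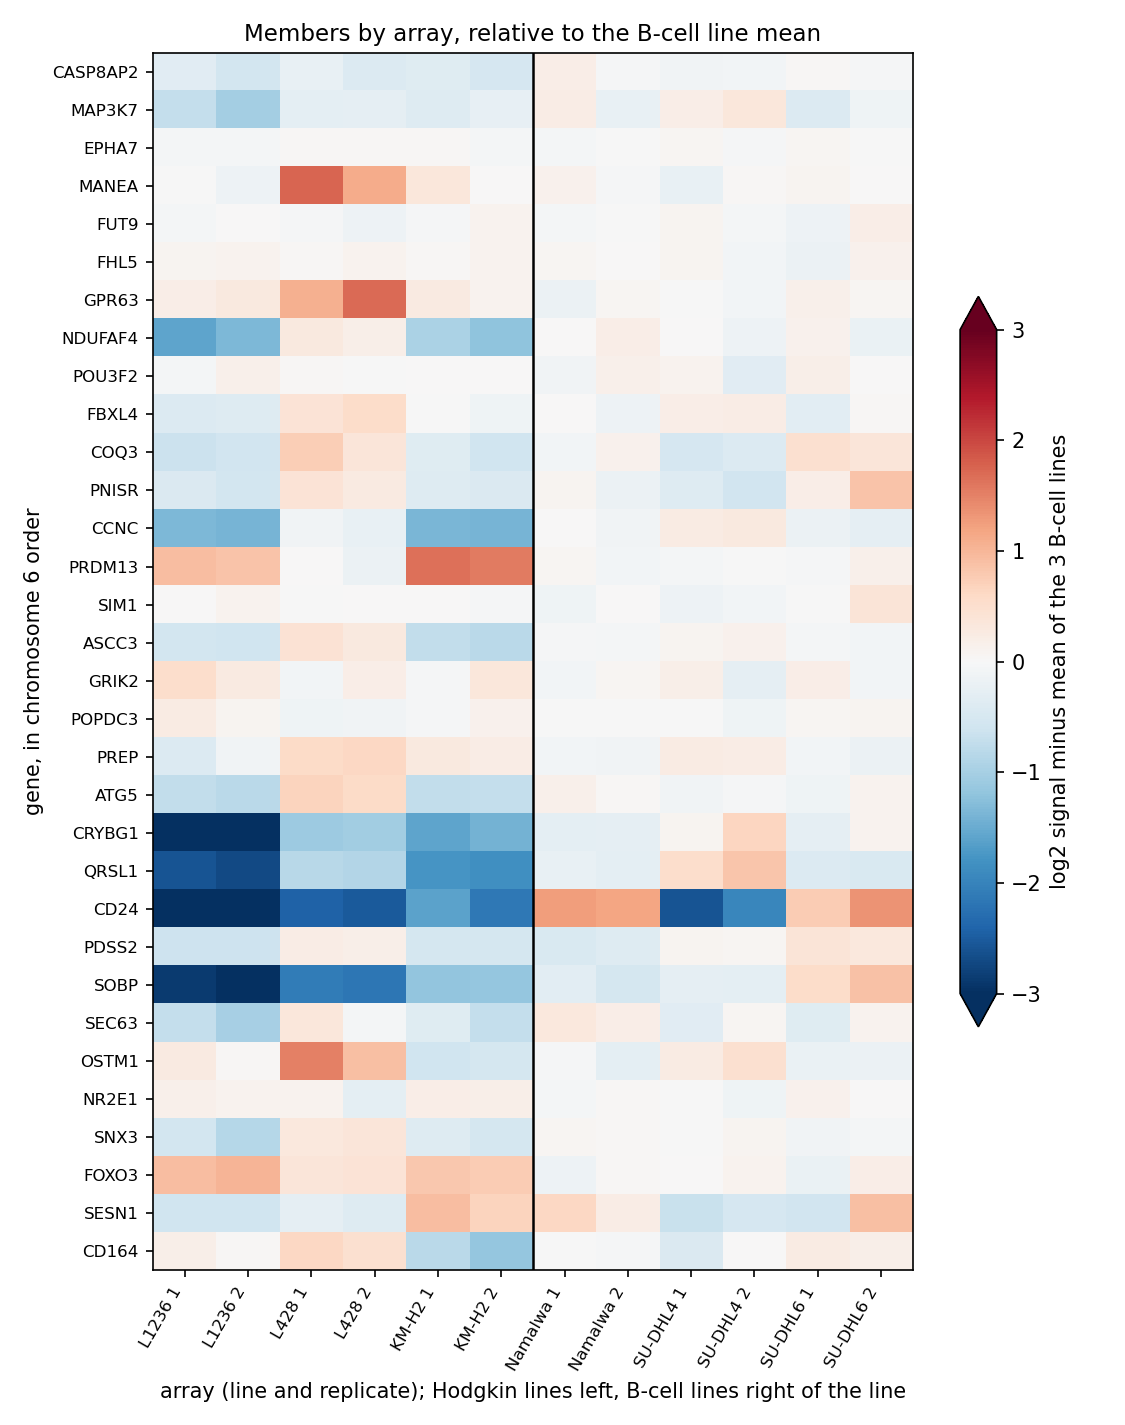
Log2 signal of the 32 members on each of the 12 arrays (columns, Hodgkin lines left and B-cell lines right) minus the mean of the 3 B-cell lines, with genes as rows in chromosome order; colours end at 3 and -3. CRYBG1, QRSL1, CD24 and SOBP were lower on all 6 Hodgkin arrays than the B-cell mean, and L428 was near or above that mean for most other members.

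The members that serve mitochondria were NDUFAF4, COQ3, PDSS2, QRSL1 and FBXL4. NDUFAF4, an assembly factor of respiratory complex I, had log2 signals of 9.57 and 9.46 in L428, against 7.70 and 7.94 in L1236 and 8.34 and 8.07 in KM-H2. The B-cell arrays lay between 9.09 and 9.47. L428 was thus at the level of the B-cell lines or slightly above it, while L1236 and KM-H2 did not overlap with either. L428 exceeded L1236 by 1.70, or 3.24-fold.

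COQ3 methylates intermediates of ubiquinone, the mobile electron carrier of the respiratory chain, and PDSS2 is a subunit of the enzyme that makes its isoprenoid tail. COQ3 had 9.15 and 8.79 in L428, 7.78 and 7.84 in L1236 and 8.06 and 7.83 in KM-H2. Its B-cell arrays ran from 7.92 to 8.90. PDSS2 had 7.44 and 7.39 in L428, 6.60 and 6.60 in L1236 and 6.69 and 6.70 in KM-H2, against 6.77 to 7.60 in the B-cell lines. Both genes had L428 arrays above all other Hodgkin arrays, by 1.16 and 0.81 over L1236 on the means. QRSL1, a subunit of the mitochondrial enzyme that forms glutaminyl-tRNA, had 6.87 and 6.74 in L1236, 8.61 and 8.56 in L428 and 7.68 and 7.61 in KM-H2, against 8.99 to 10.28 in the B-cell lines. On this probe set all 3 Hodgkin lines stood below every B-cell array, L428 least and L1236 most. The other probe set of QRSL1 did not separate the types, with line means of 7.37 in L428 and 7.25 in KM-H2, against 6.79 in SU-DHL6. FBXL4, an F-box protein that restrains the removal of mitochondria, was dim, with 6.08 in L428, 5.19 in L1236 and 5.52 in KM-H2 as line means.

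The members that act on transcription, RNA and translation were CCNC, ASCC3, PNISR and CASP8AP2. CCNC, the cyclin of the Mediator kinase module, had 10.08 and 9.97 in L428, 8.83 and 8.79 in L1236 and 8.82 and 8.80 in KM-H2. Its B-cell arrays ran from 9.93 to 10.48. L428 lay within the B-cell arrays, while L1236 and KM-H2 were alike and 2.60-fold and 2.61-fold below the B-cell mean. ASCC3, a helicase of the activating signal cointegrator complex that also clears stalled ribosomes, had 9.10 and 8.96 in L428, 8.11 and 8.08 in L1236 and 7.93 and 7.86 in KM-H2. The B-cell arrays of ASCC3 ran from 8.59 to 8.79, so L428 was above all of them and L1236 and KM-H2 below.

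PNISR, a nuclear protein related to splicing regulators, had 8.41 and 8.26 in L428, 7.57 and 7.45 in L1236 and 7.62 and 7.57 in KM-H2, against 7.42 to 8.86 in the B-cell lines. CASP8AP2, which takes part in the processing of histone transcripts, hardly differed among the Hodgkin lines, with 7.62 and 7.41 in L1236, 7.73 and 7.55 in L428 and 7.59 and 7.47 in KM-H2. All 6 of these Hodgkin values were under the lowest B-cell array, 7.86.

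Autophagy, vesicle traffic and the secretory route were served by ATG5, SNX3, SEC63, OSTM1, CD164 and MANEA. ATG5, which is joined to ATG12 in the conjugate that drives lipidation of LC3 proteins, had 9.27 and 9.18 in L428, 7.87 and 7.81 in L1236 and 7.87 and 7.89 in KM-H2. Its B-cell arrays ran from 8.47 to 8.75. L428 stood above all B-cell arrays and the other 2 Hodgkin lines below all of them. L428 exceeded L1236 by 2.62-fold and KM-H2 by 2.55-fold.

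SNX3, a sorting nexin of the retromer route from endosomes, had 11.65 and 11.70 in L428, 10.76 and 10.46 in L1236 and 10.93 and 10.80 in KM-H2, against 11.22 to 11.41 in the B-cell lines. On this probe set, as on that of ATG5, L428 stood above all B-cell arrays and the other 2 Hodgkin lines below all of them. Another probe set of SNX3 had line means of 9.51 in L428 and 8.95 in KM-H2, against 8.92 to 9.47 in the B-cell lines. SEC63, a partner of the channel that moves new proteins into the endoplasmic reticulum, had 9.03 and 8.62 in L428, 7.97 and 7.68 in L1236 and 8.33 and 7.97 in KM-H2, against 8.32 to 9.01 in the B-cell lines. The duplicates of SEC63 were further apart, and 1 KM-H2 array lay inside the B-cell range.

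OSTM1, which stabilises a chloride transporter of lysosomes, had 8.0 and 7.40 in L428, 6.78 and 6.53 in L1236 and 5.91 and 5.97 in KM-H2, against 6.20 to 6.99 in the B-cell lines. For this gene KM-H2, not L1236, was the lowest line. CD164, a sialomucin found on the cell surface and in endosomes, had 10.57 and 10.42 in L428, 10.12 and 9.98 in L1236 and 9.13 and 8.77 in KM-H2, against 9.52 to 10.19 in the B-cell lines. On this probe set L1236 was therefore within the B-cell range for CD164 and KM-H2 below it. The other probe sets of CD164 had L1236 line means of 8.31 and 9.17. Those lay above the B-cell line means, which were 7.21 to 7.88 and 8.88 to 9.05. MANEA, a Golgi enzyme that trims N-glycans, was dim, with 6.74 and 6.09 in L428 and 4.77 to 5.32 on the other 10 arrays.

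Signalling and stress genes were MAP3K7, FOXO3, SESN1, PREP and GPR63. MAP3K7 encodes the kinase TAK1, which passes signals of cytokine and innate immune receptors to NF-kB. It had 7.73 and 7.41 in L1236, 8.15 and 8.17 in L428 and 8.05 and 8.20 in KM-H2, against 8.04 to 8.79 in the B-cell lines. On this probe set only L1236 stood apart from the B-cell arrays, 1.83-fold below their mean. Other probe sets of MAP3K7 also had L428 and KM-H2 below every B-cell line mean. Their line means were 7.48 and 7.86 against 7.88 to 8.31 on 1 of them, and 8.14 and 8.14 against 8.33 to 8.62 on another.

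FOXO3, a transcription factor held back by AKT signalling, ran against the order of its neighbours. It had 8.74 and 8.84 in L1236, 8.18 and 8.21 in L428 and 8.62 and 8.58 in KM-H2, against 7.61 to 8.0 in the B-cell lines. All Hodgkin arrays exceeded all B-cell arrays, and L428 was the lowest Hodgkin line. FOXO3 has a pseudogene with a closely similar sequence, so the probe set may read more than 1 gene.

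SESN1, a stress-induced inhibitor of mTOR signalling, had 8.47 and 8.20 in KM-H2, 6.94 and 6.93 in L1236 and 7.27 and 7.14 in L428. Its B-cell arrays ran from 6.88 to 8.44. The 2 arrays of SU-DHL6 stood at 6.97 and 8.44, so no order among the B-cell lines can be read for it. PREP, a peptidase that cuts short peptides after proline, had 9.04 and 9.08 in L428, 8.05 and 8.37 in L1236 and 8.76 and 8.68 in KM-H2, against 8.27 to 8.72 in the B-cell lines. GPR63, a G protein-coupled receptor, was dim, with 6.41 and 7.03 in L428 and 5.17 to 5.63 on the other 10 arrays.

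**Figure D2:**
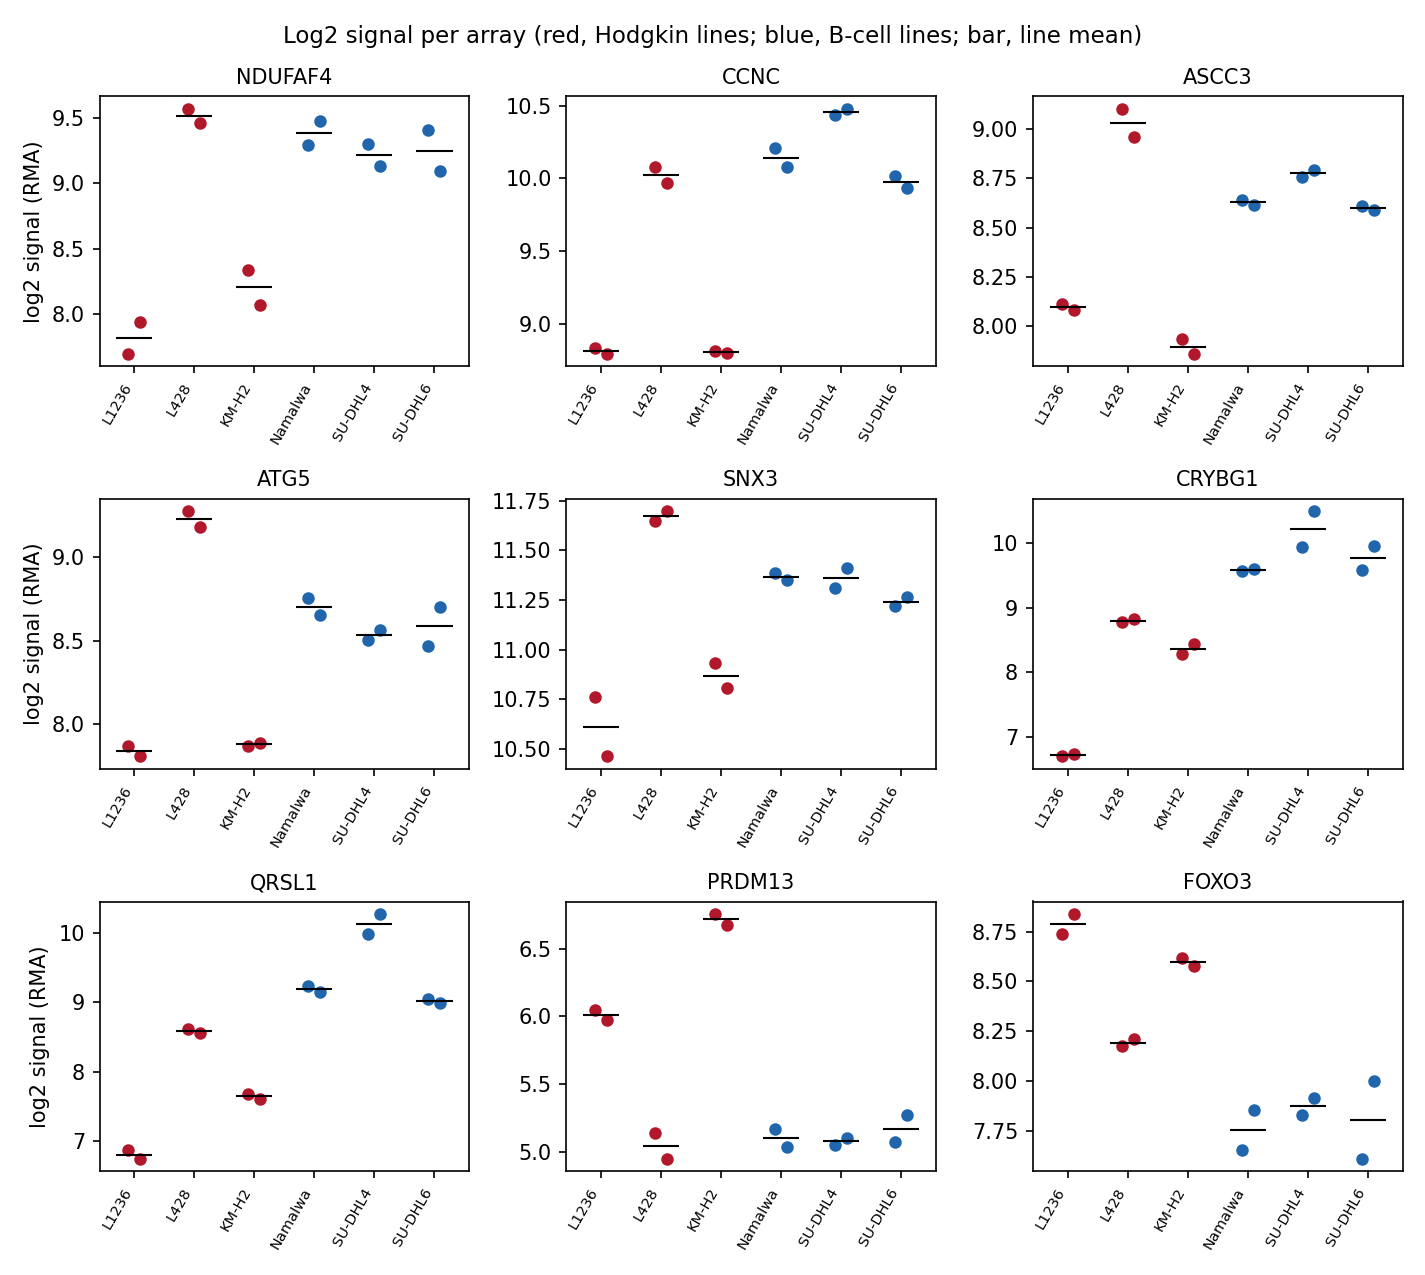
Log2 signal (vertical axes, which do not start at 0) of 9 members on each array, by line; points are arrays, bars are line means, red marks Hodgkin lines and blue B-cell lines. L428 lies at or above the B-cell lines for NDUFAF4, ASCC3, ATG5 and SNX3 and within them for CCNC, while CRYBG1 and QRSL1 are lowest in L1236, PRDM13 is highest in KM-H2 and FOXO3 is highest in L1236.

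CRYBG1 and SOBP had large gaps between all Hodgkin and all B-cell arrays, and CD24 had a large gap to 2 of the B-cell lines. CRYBG1 carries crystallin-type domains and binds actin. It had 6.69 and 6.73 in L1236, 8.77 and 8.82 in L428 and 8.29 and 8.44 in KM-H2, against 9.57 to 10.50 in the B-cell lines. L1236 was 8.89-fold, L428 2.09-fold and KM-H2 2.83-fold below the B-cell mean. SOBP, named after the fly protein that binds sine oculis, had 5.94 and 5.46 in L1236, 6.72 and 6.63 in L428 and 7.62 and 7.64 in KM-H2, against 8.27 to 9.70 in the B-cell lines. The L1236 arrays of SOBP were near the lower quartile.

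CD24, a surface glycoprotein of B-cell precursors and many carcinomas, had 6.28 and 6.96 in L1236, 8.11 and 8.0 in L428 and 8.92 and 8.38 in KM-H2. The B-cell lines split, with 11.77 and 11.71 in Namalwa and 11.30 and 11.87 in SU-DHL6, and 7.93 and 8.57 in SU-DHL4. SU-DHL4 was thus at the level of L428 and KM-H2 for this gene. CD24 has processed pseudogenes of near-identical sequence, so its probe sets may read more than 1 locus. Its 6 probe sets had SU-DHL4 below the other B-cell lines with differences of -2.21 to -3.78.

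PRDM13, a zinc-finger repressor of the developing nervous system, was dim but separated the lines. It had 6.76 and 6.68 in KM-H2, 6.05 and 5.97 in L1236 and 5.14 and 4.95 in L428. Its B-cell arrays ran from 5.03 to 5.27. L428 lay at the level of the B-cell lines and KM-H2 exceeded their mean by 3.04-fold. The difference of L428 was no longer called when values were raised to a floor of 5.72 or when dim probe sets were left out.

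The last 8 members had Hodgkin line means within 0.33 of each other. GRIK2, a kainate-type glutamate receptor subunit, had line means of 7.25 in L1236, 6.92 in L428 and 7.01 in KM-H2, against 6.81 to 6.92 in the B-cell lines. NR2E1, an orphan nuclear receptor of neural stem cells, had line means between 6.25 and 6.53 over the 6 lines. POPDC3, a cAMP-binding membrane protein of muscle, lay between 5.57 and 5.84. POU3F2, a neural transcription factor, lay between 5.52 and 5.73. FHL5, a LIM-domain protein of the testis, lay between 4.57 and 4.70, and FUT9, a fucosyltransferase that makes Lewis x, between 4.33 and 4.46. SIM1, a hypothalamic transcription factor, lay between 4.26 and 4.56, and EPHA7, an ephrin receptor, between 4.09 and 4.19. Apart from GRIK2 and NR2E1, these means lie near or below the lower quartile.

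The members were set array by array against the B-cell lines on the chosen probe sets. Both L1236 arrays were below all 6 B-cell arrays in 15 members (background 17.9% of all genes): CASP8AP2, MAP3K7, NDUFAF4, FBXL4, COQ3, CCNC, ASCC3, ATG5, CRYBG1, QRSL1, CD24, PDSS2, SOBP, SEC63 and SNX3. Both KM-H2 arrays were below in 12 (15.3%): CASP8AP2, NDUFAF4, CCNC, ASCC3, ATG5, CRYBG1, QRSL1, PDSS2, SOBP, OSTM1, SNX3 and CD164. Both L428 arrays were below in 4 (15.2%): CASP8AP2, CRYBG1, QRSL1 and SOBP. Above all B-cell arrays were 10 members in L428 (14.1%), 4 in L1236 (15.5%) and 3 in KM-H2 (16.0%). The L428 arrays lay within the range of the B-cell arrays in 11 members (47.3%). The 10 above it in L428 were MANEA, GPR63, FBXL4, ASCC3, PREP, ATG5, OSTM1, SNX3, FOXO3 and CD164. All 3 sets of counts share the B-cell arrays, and those of L1236 and L428 use the values by which the members were picked.

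By size, 6 members lay at least 1 below the B-cell mean in L1236 (background 5.53%) and 0 at least 1 above it (5.32%). The 6 were NDUFAF4, CCNC, CRYBG1, QRSL1, CD24 and SOBP, and the same 6 names made up the 6 in KM-H2 (5.31%), where PRDM13 alone lay above (4.99%). In L428, MANEA, GPR63 and OSTM1 were at least 1 above (4.46%) and CRYBG1, CD24 and SOBP at least 1 below (4.58%). The B-cell means of MANEA (4.99) and GPR63 (5.33) lay under the floor of 5.72. The median difference of the members from the B-cell mean was -0.42 in L1236, 0.07 in L428 and -0.36 in KM-H2. Against Namalwa alone, the B-cell line of the same dataset, 8 members lay at least 1 lower in L1236 (5.64%), with SEC63 and SESN1 added, and FOXO3 lay at least 1 higher (5.45%). In L428 the counts against Namalwa were 3 higher (4.92%) and 2 lower (5.18%), with CD24 and SOBP the lower ones. In KM-H2 they were 1 higher, PRDM13 (5.07%), and 5 lower (5.83%).

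Pairs of Hodgkin lines were also compared by size. L428 exceeded L1236 by at least 1 in 11 members (background 3.83%) and was below it by that much in 0 (3.85%). L428 exceeded KM-H2 by at least 1 in 9 members (4.56%), and PRDM13 and SESN1 were lower in L428 by at least 1 (4.48%). KM-H2 exceeded L1236 in 4 (4.97%) and was lower in CD164 (4.97%). On the chosen probe sets KM-H2 minus L1236 was -0.01 for CCNC, 0.04 for ATG5 and -0.20 for ASCC3. For CRYBG1, SOBP and CD24, KM-H2 lay 1.65 to 2.03 above L1236 there. Another bright probe set of ATG5 had line means of 7.18 in KM-H2 and 6.75 in L1236. Another of CD24 had 6.57 and 6.29.

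The spread among lines differed between the types. Over the members the median range of the 3 Hodgkin line means was 1.03, against 0.256 for the 3 B-cell line means. The same medians over all genes were 0.312 and 0.268. The Hodgkin range was the wider in 26 of 32 members, or 81.2%, and in 53.0% of all genes. The exceptions on the chosen probe sets were CASP8AP2, FHL5, POU3F2, SIM1, PNISR and CD24. On the other probe sets of PNISR the Hodgkin range was the wider. The reverse held on another probe set each of QRSL1, SEC63 and GRIK2, where the B-cell range was the wider. That of QRSL1 had line means of 6.73 to 7.37 in the Hodgkin lines and 6.79 to 8.59 in the B-cell lines. L1236 was the lowest of the 6 lines in 17 members (18.5% of all genes) and L428 the highest in 12 (15%). Differences among the Hodgkin lines chose the members, so the wide Hodgkin range is a description.

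**Figure D3:**
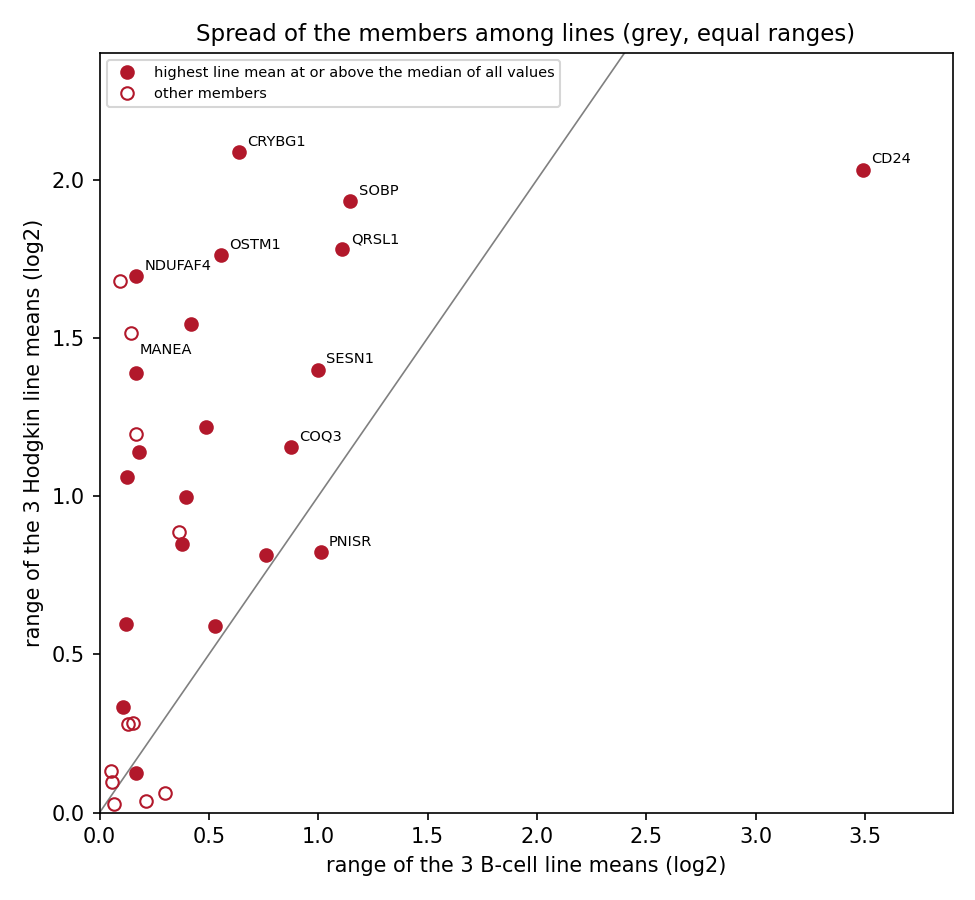
Range of the 3 Hodgkin line means (vertical axis, log2) against the range of the 3 B-cell line means (horizontal axis, log2) for each member; filled points are members whose highest line mean reached 6.9, open points the dim ones, and the grey line marks equal ranges. Most members lie above the line, CD24 lies far below it with a B-cell range of 3.49, and 5 others lie below it.

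The choice of members did not use differences among the B-cell lines, and 3 members, CD24, QRSL1 and SOBP, were called there. CD24 was lower in SU-DHL4 than in the other B-cell lines by 3.41 (SE 0.25), a 10.6-fold difference, with limma's adjusted p = 2.46e-05 over all probe sets. It was higher in Namalwa by 1.82 (adjusted p = 0.00091 in limma) and in SU-DHL6 by 1.59 (adjusted p = 0.00186 in limma), contrasts that both include SU-DHL4. Within the newer dataset, SU-DHL4 lay 3.33 below SU-DHL6 (limma, adjusted p = 6.08e-05). QRSL1 was higher in SU-DHL4 by 1.02 (SE 0.09, limma adjusted p = 9.25e-05), or 2.03-fold, and by 1.11 against SU-DHL6 alone. Without SU-DHL4 replicate 2 the QRSL1 difference was 0.88 and no longer reached 1.

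SOBP was higher in SU-DHL6 than in the other B-cell lines by 1.07 (SE 0.14, limma adjusted p = 0.000708), or 2.1-fold. The SOBP difference was 0.90 without SU-DHL6 replicate 2 and fell just short of 1 against SU-DHL4 alone, so neither setting gave a call. Counted over the members, 1 was called higher in Namalwa (background 2.01%) and 0 lower (1.81%). In SU-DHL4, 1 was called higher (1.89%) and 1 lower (1.87%). In SU-DHL6, 2 were higher (1.93%) and 0 lower (2.35%). Without SU-DHL6 replicate 1, SESN1 was also called lower in SU-DHL4, by 1.24, and PNISR higher in SU-DHL6, by 1.12.

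Smaller differences among the B-cell lines passed limma's adjusted p of 0.05 without reaching 1. In Namalwa these were 0 members higher (6.53% of all genes) and 3 lower (6.71%), in SU-DHL4 3 higher (6.12%) and 2 lower (6.43%), and in SU-DHL6 3 higher (8.27%) and 2 lower (6.98%). The largest on the chosen probe sets was PNISR, with 0.79 in SU-DHL6 and -0.72 in SU-DHL4 (limma, adjusted p = 0.00783 and 0.0151). The other probe sets of PNISR gave only 0.13 and 0.24 in SU-DHL6 and -0.20 and -0.19 in SU-DHL4. SOBP differed by -0.65 in Namalwa and QRSL1 by -0.64 in SU-DHL6 (limma, adjusted p = 0.0124 and 0.00122). The other probe set of QRSL1 gave larger differences, -1.26 in SU-DHL6 and 1.44 in SU-DHL4. PDSS2 was lower in Namalwa, with a difference of -0.63 (adjusted p = 0.000229 in limma) and higher in SU-DHL6 by 0.52 (adjusted p = 0.000676 in limma). COQ3, the other ubiquinone gene among the members, differed by -0.67 in SU-DHL4 (limma, adjusted p = 0.00434) and by 0.64 in SU-DHL6 (limma, adjusted p = 0.00478). CCNC differed by 0.40 in SU-DHL4 (limma, adjusted p = 0.00608). On the chosen probe sets NDUFAF4, ATG5, ASCC3 and SNX3, which lay far apart among the Hodgkin lines, had B-cell line means within 0.18 of each other. None of these had an adjusted p under 0.05 in limma. Other probe sets spread further, with B-cell line means of 7.49 to 8.07 on another of ATG5 and 8.92 to 9.47 on another of SNX3. Since duplicate arrays are the replicates in these tests, and the labels do not say whether they came from separate cultures, the p-values measure the spread between arrays.

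Between the lymphoma types no member was called. On the 6 line means, 3 Hodgkin against 3 B-cell, 0 of 32 members had a limma adjusted p under 0.05 (background 0.468% higher and 0.861% lower). The members were picked by differences among the Hodgkin lines, and that spread is part of the error in this test. The choice thus works against a call, and nothing is read from the absence of one. The lowest adjusted p was 0.0959, for CASP8AP2, which was 0.40 lower in the Hodgkin lines. At an unadjusted p under 0.05 in limma there were 6 members, or 18.8%, against 15.3% of all genes. CCNC differed by -0.98, CRYBG1 by -1.91, QRSL1 by -1.77 and SOBP by -2.14, and FOXO3 was 0.72 higher. Their limma adjusted p-values were 0.336, 0.238, 0.24, 0.197 and 0.144 in that order.

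CD24 had the largest difference of any member, -2.75, with a limma adjusted p of 0.355 and SU-DHL4 at the level of the Hodgkin lines. Among the 3 Hodgkin lines against Namalwa alone the differences were -3.97 for CD24, -1.71 for SOBP, -1.63 for CRYBG1, -1.52 for QRSL1, -0.93 for CCNC, -0.49 for CASP8AP2 and 0.77 for FOXO3. The signs were those of the full comparison, and none of the 7 was called. The authors' deposited table gave 7 members an adjusted p under 0.05, or 21.9%, against 14.7% of all genes. In the authors' deposited table CASP8AP2, CCNC, CRYBG1, QRSL1, CD24 and SOBP were lower in the Hodgkin lines and FOXO3 higher. The values of CASP8AP2 (0.0024) and CD24 (0.035) were the lowest and highest of the 7 adjusted p-values in the authors' deposited table. With the 12 arrays taken as replicates, as an alternative, limma called the same 7. That setting treats the 2 arrays of a line as independent, so its p-values are too small for a difference between lymphoma types. The labels do not say how duplicates entered the authors' comparison, and nothing is read from the match.

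The interval and its surroundings were compared along the chromosome, in RefSeq gene order. Between the first and the last member lie 3 measured genes that are no members: BACH2, PRDM1 and ZPR1P1. BACH2, a B-cell transcription factor that delays plasma cell differentiation, had line means of 6.39 in L428, 4.81 in L1236 and 4.82 in KM-H2, against 10.49 in Namalwa, 8.33 in SU-DHL4 and 7.62 in SU-DHL6. L428 exceeded the other Hodgkin lines by 1.57 (SE 0.29, limma adjusted p = 0.0035), although the L1236 and KM-H2 values were at background level. With values raised to a floor of 5.72 the BACH2 difference was 0.66 (limma adjusted p = 0.287) and no longer called. PRDM1 lay between 7.12 and 7.44 in all lines and was not called in any contrast. ZPR1P1, a pseudogene, lay between 4.64 and 4.84.

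L1236 was below and L428 above in all 3 of these genes, in 10 of the 20 measured genes before the block and in 14 of the 20 after it. Over the rest of chromosome 6 the share was 35.1% of 598 genes. Both L428 arrays lay above all L1236 and KM-H2 arrays in 17 members, or 53.1%, in 7 of the 20 genes before and in 10 of the 20 after, against 17.0% of all genes and 18.6% of the rest of chromosome 6. Both L1236 arrays lay below all L428 and KM-H2 arrays in 13 members, or 40.6%, in 4 of the 20 before and in 5 of the 20 after, against 17.5% of all genes. No test was made of these shares, because the members were chosen for the pattern.

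Among the flanking genes, RRAGD, a GTPase that activates mTOR signalling at lysosomes, ran against the members: it was 2.82 higher in L1236 (SE 0.15, limma adjusted p = 8.82e-07) and differed by -1.88 in L428 (adjusted p = 1.86e-05 in limma). RNGTT, the enzyme that caps messenger RNA, was 1.35 higher in L428 (limma, adjusted p = 0.000335). UBE2J1, a ubiquitin-conjugating enzyme of the endoplasmic reticulum, was 1.01 higher in L428 and, over the lymphoma types, differed by -3.08 (limma adjusted p = 0.0315), the flanking gene called in that comparison. The type call of UBE2J1 was lost without KM-H2 or any 1 of the B-cell lines, with the floor and with the mean of all probe sets (limma adjusted p 0.0509 to 0.132). Against Namalwa alone UBE2J1 differed by -3.28, without a call, and dataset as a block gave that same difference. Both settings rest on Namalwa as the 1 B-cell line, so their lack of a call says little. Its call in L428 was lost without L1236 replicate 1 (0.94) or L428 replicate 2 (0.99), and that of RNGTT with the mean of all probe sets (0.88). SLC35A1, the Golgi transporter of sialic acid donors, differed by -1.15 in L1236 (limma, adjusted p = 0.000141). PNRC1, a coactivator of nuclear receptors, was 1.64 higher in KM-H2 and MDN1, a factor of ribosome assembly, was -1.06 apart there, with limma adjusted p-values of 0.00121 and 0.000119.

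On the far side, ZBTB24, a zinc-finger protein needed for DNA methylation at centromeric repeats, was 1.33 higher in L428 (limma, adjusted p = 1.26e-05) and differed by -1.29 in KM-H2 (limma, adjusted p = 1.18e-05). HDAC2, a histone deacetylase, was 1.0 higher in L428 (limma, adjusted p = 8.47e-06). FYN, a kinase of the SRC family, differed by -1.51 in L1236 and by 1.01 in KM-H2 (limma, adjusted p = 0.00166 and 0.0143). MARCKS, a membrane-bound substrate of protein kinase C, differed among the B-cell lines, by 1.89 in Namalwa and -2.86 in SU-DHL4 (limma, adjusted p = 0.000959 and 9.06e-05). The HDAC2 difference fell just under 1 without KM-H2 replicate 2, L1236 replicate 2 or L428 replicate 1. With the mean of all probe sets FYN differed by -0.91 in L1236, and MARCKS by 0.88 in Namalwa and -1.22 in SU-DHL4. With the floor, MARCKS differed by 1.23 in Namalwa (limma adjusted p = 0.0524) and by -1.54 in SU-DHL4. The call of FYN in KM-H2 was lost with the floor, median centring and the mean of all probe sets, and without either KM-H2 array, L1236 replicate 1 or L428 replicate 2 (differences of 0.64 to 1.02).

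**Figure D4:**
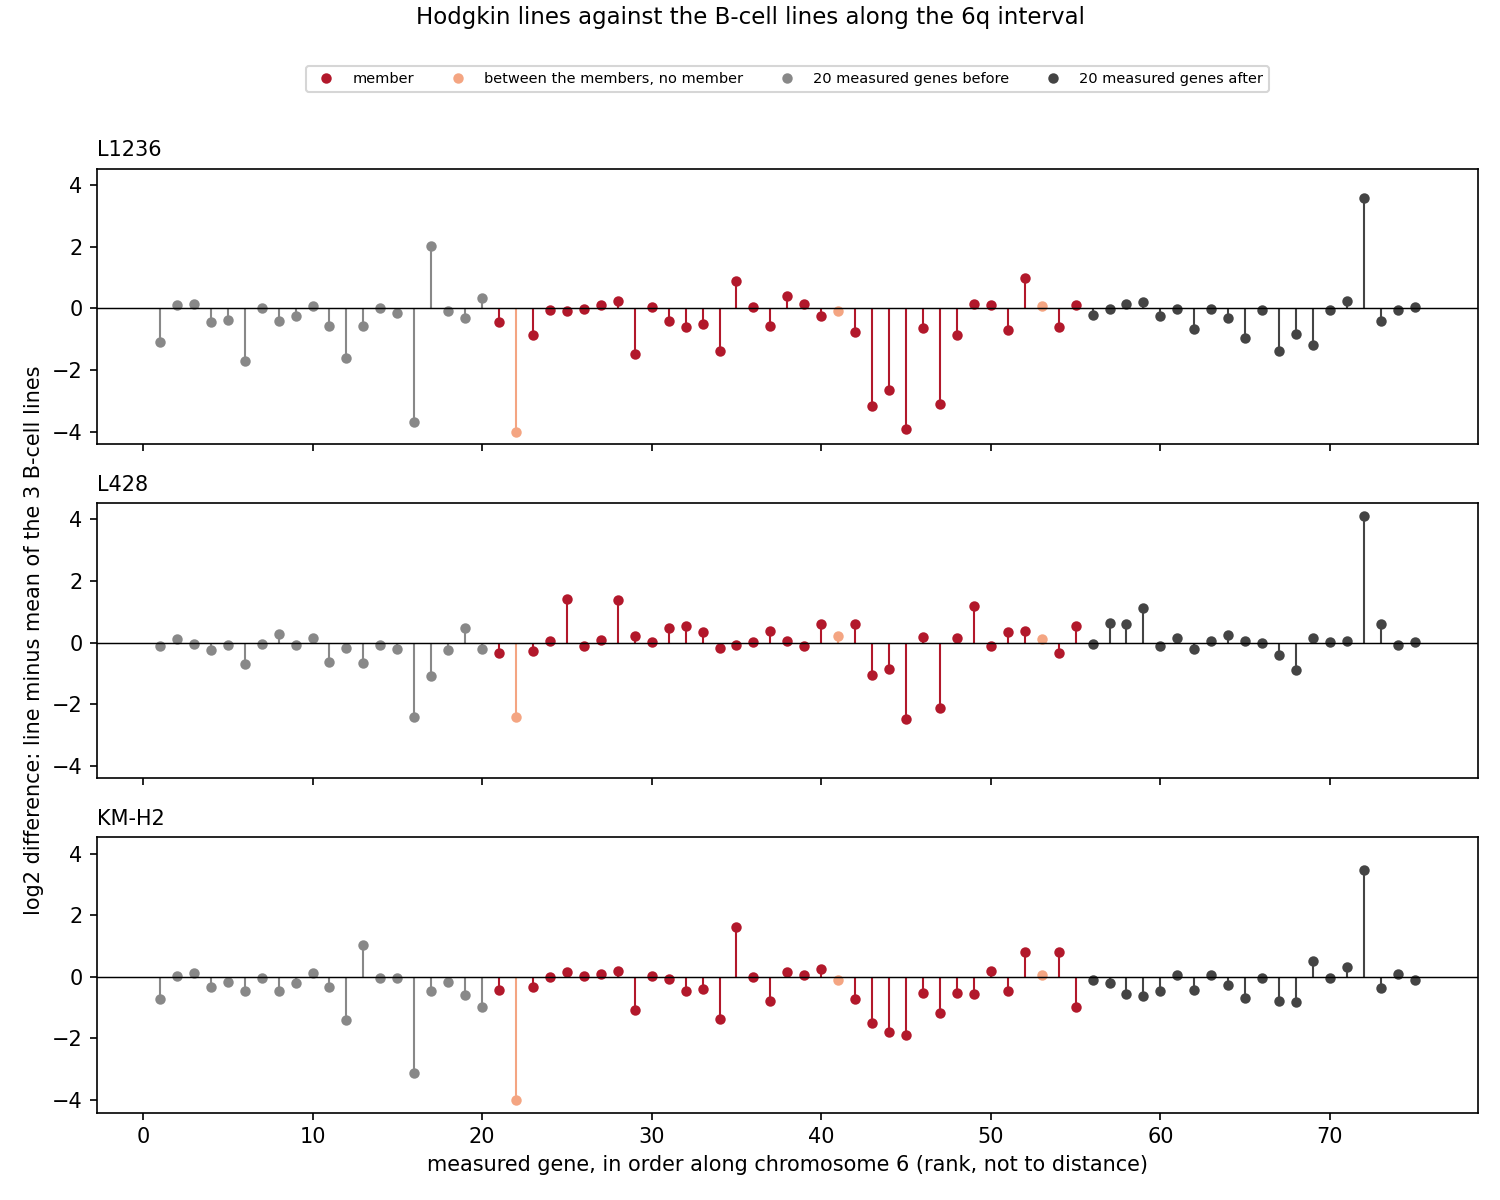
Log2 difference of L1236, L428 and KM-H2 from the mean of the 3 B-cell lines (vertical axis) for the measured genes in order along chromosome 6 (horizontal axis, rank rather than distance); red points are members, pale points the 3 other genes between them, and grey and dark points the 20 measured genes on each side. The run of low values around CRYBG1, QRSL1, CD24 and SOBP is shared by all 3 lines and smallest in KM-H2 for CD24 and SOBP, whereas L428 stays near 0 over most of the rest of the block.

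Genes that work with the members but mostly lie on other chromosomes were read from lists. The members were picked by the L1236 and L428 contrasts, so gaps between them and the listed genes are only described. The list of autophagy conjugation genes around ATG5 had 17 measured genes, of which 2 were called higher and 1 lower in L1236 and 1 higher and 0 lower in L428, with medians of 0.06 and 0.11. In KM-H2, 1 was higher and 2 were lower, with a median of -0.18. ATG3, the enzyme that transfers LC3 proteins to lipid, was 1.51 higher in L1236 and 1.52 higher in L428, and differed by -3.03 in KM-H2 (limma, adjusted p = 7.39e-09). ATG12, the conjugation partner of ATG5, differed by -1.01 in L1236 (limma, adjusted p = 0.016) and by 0.25 in L428. WIPI1, which binds forming autophagosomes, was 1.28 higher in L1236 and SQSTM1, a receptor for autophagy cargo, was 1.12 higher in KM-H2 (limma, adjusted p = 2.54e-05 and 5.62e-05). The ATG12 call was lost with the mean of all probe sets (-0.66), with the floor, and without either L1236 array, KM-H2 replicate 2 or L428 replicate 1 (limma adjusted p up to 0.149). With the mean of all probe sets, ATG3 differed by 0.93 in L1236, 0.81 in L428 and -1.74 in KM-H2, and SQSTM1 by 0.76 in KM-H2, while WIPI1 differed by 0.81 in L1236 with the floor.

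None of the 5 measured partners of CCNC in the Mediator kinase module was called in L1236, L428 or KM-H2, and their median in L428 was -0.37 beside 1.21 for CCNC itself. Its kinase partner CDK19, which lies in the flank after the block, was 0.54 higher in L428, without a call, and CDK8 differed by -0.01. None of 8 partners of MAP3K7 and none of 7 complex I assembly partners of NDUFAF4 was called in any contrast. The complex I partners had medians of -0.30 in L1236 and 0.21 in L428, beside -1.04 and 1.5 for NDUFAF4.

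The 10 measured partners of SEC63 in translocation to the endoplasmic reticulum had a median of -0.50 in L428, where SEC63 itself stood at 0.83, and 0 of them were called there. SEC61A2, a channel subunit, was 1.08 higher in KM-H2 (limma, adjusted p = 0.004) and SRPRA, a subunit of the signal recognition particle receptor, differed by -1.26 in SU-DHL6 (limma, adjusted p = 0.000113). Without KM-H2 replicate 1 the SEC61A2 call was lost (0.88, limma adjusted p = 0.0561). Of 8 partners of COQ3 and PDSS2 in ubiquinone synthesis, COQ8A, a kinase-like protein of the pathway, differed by -1.05 in L428 and by 1.45 in KM-H2 (limma, adjusted p = 0.000616 and 5.88e-05). The list's medians were -0.35 in L1236 and 0.05 in L428.

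The 11 measured genes around FOXO3 and SESN1 included 2 called higher and 0 lower in L1236, 1 higher and 1 lower in L428, and 0 higher and 2 lower in KM-H2. Their medians were 0.05 in L1236, -0.11 in L428 and -0.57 in KM-H2. The 2 lower in KM-H2 were SGK1 at -1.78 and TXNIP at -1.36, and TXNIP was not called there without KM-H2 replicate 2. SGK1, a kinase related to AKT that also lies on 6q, was 3.39 higher in L1236 (limma, adjusted p = 5.67e-07) and differed by -1.61 in L428. TXNIP, an inhibitor of thioredoxin, was 1.78 higher in L1236 and KLF6, a transcription factor, 1.36 higher in L428 (limma, adjusted p = 0.00143 and 0.000518). FOXO1, the paralogue of FOXO3 that is active in germinal-centre B cells, was lower in the Hodgkin than in the B-cell lines, by -1.37 (SE 0.09, limma adjusted p = 0.0114), a sign opposite to the 0.72 of FOXO3. The FOXO1 call was lost without SU-DHL4 (limma adjusted p = 0.0541) or SU-DHL6 (0.0516). Against Namalwa alone FOXO1 differed by -1.29, without a call, and dataset as a block gave that same difference. Both settings rest on Namalwa as the 1 B-cell line, so their lack of a call says little. The KLF6 difference was 0.89 with the mean of all probe sets. CDKN1B, an inhibitor of cyclin-dependent kinases, was 1.21 higher in Namalwa (limma, adjusted p = 0.0047), a call lost without Namalwa replicate 2 (adjusted p = 0.0594 in limma).

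The 9 measured genes of 6q known from lymphoid tumours, BACH2 and PRDM1 among them, had medians of -0.14 in L1236, 0.50 in L428 and -0.49 in KM-H2. In L1236, 3 of them were called higher (SGK1, PERP and the transcription factor MYB) and 3 lower (FYN, TNFAIP3 and PTPRK). In L428, BACH2, TNFAIP3 and PERP were called higher and SGK1 lower, BACH2 not with the floor. In KM-H2, 2 were called higher and 3 lower. TNFAIP3, the inhibitor of NF-kB signalling, was 3.36 higher in L428 (limma, adjusted p = 3.81e-07), and differed by -1.03 in L1236 and -2.33 in KM-H2. PERP, a membrane protein induced in cell death, was 3.67 higher in L428 and 1.5 higher in L1236, and differed by -5.17 in KM-H2. PTPRK, a receptor tyrosine phosphatase, differed by -2.05 in L1236 and by 1.21 in KM-H2 (limma, adjusted p = 8.18e-05 and 0.00213). The TNFAIP3 difference in L1236 lay between -0.97 and -0.99 without L1236 replicate 1, KM-H2 replicate 1 or L428 replicate 1. With the floor, PERP differed by 0.85 in L1236, and PTPRK by -1.27 in L1236 and 0.82 in KM-H2, where PTPRK was also not called without KM-H2 replicate 2 (0.76). These genes lie further along 6q than the members, apart from BACH2 and PRDM1 inside the interval and FYN in its flank.

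**Figure D5:**
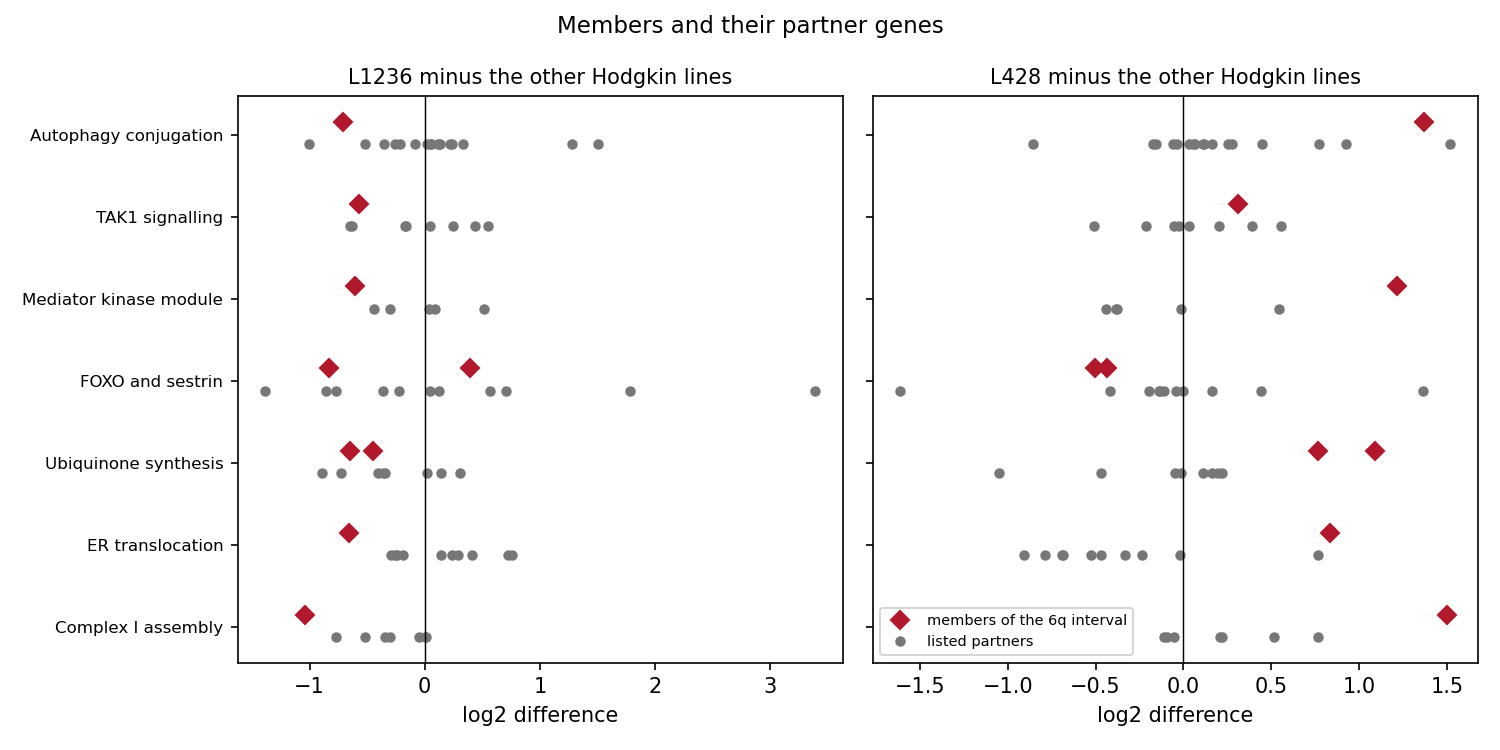
Log2 difference of L1236 (left) and of L428 (right) from the other Hodgkin lines (horizontal axes) for members (red diamonds) and the measured genes listed as their partners (grey circles), by list. In L428, ATG5, CCNC, COQ3, PDSS2, SEC63 and NDUFAF4 lie at 0.77 to 1.5, and the medians of their partner lists between -0.50 and 0.21. MAP3K7 lies at 0.31, SESN1 at -0.43 and FOXO3 at -0.50. The members were picked by these contrasts, so nothing is read from the gaps.

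The 12 members with several probe sets allowed a look at the choice of probe set. Their 26 other probe sets had the sign of the chosen one 26 times in L428, 24 times in L1236 and 19 times in KM-H2. The exceptions in L1236 were other probe sets of FUT9 and GRIK2 with mean signals of 4.41 and 3.85, and those in KM-H2 were ATG5, GRIK2, PDSS2, PNISR, QRSL1 and SNX3. For ATG5 a second bright probe set gave 1.36 in L428 and -1.0 in L1236, beside 1.37 and -0.71 for the chosen one. The second probe set of QRSL1 gave smaller values of the same sign, 0.38 in L428 and -0.58 in L1236, beside 1.36 and -1.31. All 4 probe sets of SNX3 lay between 0.84 and 0.99 in L428 and between -0.85 and -0.61 in L1236.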

How the data were processed

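RNA of 6 untreated human lymphoma cell lines was hybridised to 12 Affymetrix arrays, 2 per line. The deposited values are log2 signals normalised by the authors with RMA in R 2.10.1, per the submitters' processing notes, with no further settings stated there. The authors' deposited comparison of Hodgkin and B-cell lines gives each probe set a log2 difference, a p-value and its Benjamini-Hochberg adjustment.

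Of 22283 probe sets, 68 controls were left out and 22215 tested with limma 3.58.1 in R 4.3.3, two-sided, with Benjamini-Hochberg adjustment over all of them. A symbol alone on its probe set was required (19065 probe sets, 11963 genes). A single model held all 12 arrays with a coefficient per line. Each line was set against the average of its 2 fellow lines, and calls required an adjusted p under 0.05 together with a difference of 1 or more on the log2 scale. For Hodgkin against B-cell lines, limma was fitted to the 6 line means and a call needed an adjusted p under 0.05. The steps were tested on simulated data. Precision is limited by having 2 arrays per line. Gene order came from RefSeq (GRCh38.p14), where 11953 genes matched.

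The members, the 8 lists of partner and other 6q genes (89 genes, 74 measured) and the tests were chosen with earlier results of these data known. The text gives every member of the brighter kind by line, every measured gene between the members, and of the flanks and lists the genes called in a contrast, at most 6 per list by size, and the genes whose probe sets differ in sign. The array values given for MANEA, GPR63 and PRDM13 and the mentions of CDK19, CDK8 and MYB were chosen after their values were seen. Alternatives were the replicate number as a block, leaving out each array or line, a floor, an intensity trend, a filter on dim probe sets, median centring, the mean of all probe sets, a smaller difference and each dataset alone.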

Additional observations from a re-analysis of the deposited data

How the results depend on the processing

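Counts of members in the Hodgkin line contrasts moved by over 1.5 times with 3 settings. With a difference of at least 0.58 in place of 1, 13 members were called lower in L1236 (8.46% of all genes at that threshold), 17 higher in L428 (8.02%) and 6 lower in KM-H2 (8.54%). With values raised to a floor, 2 were called higher in KM-H2 (CD24 and SOBP; 3.44% of all genes) and 0 lower in L428 (2.65%), and leaving out dim probe sets also gave 0 lower in L428 (4.39% of the genes left). Among the B-cell lines the difference of 0.58 gave 2 lower in Namalwa (4.94% of all genes), 3 lower in SU-DHL4 (4.51%), and 4 higher (5.37%) and 1 lower (5.87%) in SU-DHL6. Within the newer dataset alone 2 were lower in SU-DHL4 (2.52%) and 1 lower in SU-DHL6 (2.98%). Leaving out 1 array gave 3 to 4 higher and 2 lower in KM-H2, 0 higher and 4 to 6 lower in L1236, 8 to 12 higher and 1 lower in L428, 1 higher and 0 lower in Namalwa, 0 to 1 higher and 1 to 2 lower in SU-DHL4, 1 to 3 higher and 0 lower in SU-DHL6, and 0 in both directions for the types. Among the Hodgkin lines, the call of SESN1 in KM-H2 was lost without either KM-H2 array, that of NDUFAF4 in L1236 without L1236 replicate 1 or KM-H2 replicate 1, those of COQ3 and ASCC3 in L428 without L428 replicate 1, and that of GPR63 without L428 replicate 2. Against the B-cell mean, FOXO3 became 1 member higher in L1236 against Namalwa alone or without SU-DHL6 replicate 2, and 2 were higher and 7 lower in KM-H2 without that array; both settings were added after seeing the data.

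With arrays as replicates for the types, which treats the 2 arrays of a line as independent, 1 member was called higher and 6 lower. With the replicate number as a block in that setting, 5 were lower. The replicate number as a block moved no count in the line contrasts by over 1.5 times, with an adjusted p of 0.00029 for QRSL1 in SU-DHL4 in limma. The labels do not say whether the replicate numbers pair arrays of different lines. Deviations of same-numbered arrays correlated between -0.443 (Namalwa and SU-DHL4) and 0.296 (L1236 and L428) over 15 pairs of lines, which does not settle it. No value reversed a called sign. The cause of the other shifts was not tested. Signal near background limits the 11 dim members.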
